A study of Mus musculus with 2 samples.

Results

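The Notch genes described here are 3 receptors (Notch1, Notch3, Notch4), 3 ligands (Jag1, Jag2, Dll1), the receptor modifier Lfng, the DNA-binding mediator Rbpj and the target genes Hes1 and Hey1. They were taken from a series that compared skin of newborn mice lacking keratin 5 (K5-/-, knockout) with skin of newborn wild type mice, a model of the blistering disorder epidermolysis bullosa simplex. A probe set was included when the platform annotation named exactly 1 gene for it and that gene was on the list. This gave 12 probe sets for 9 of the 10 genes, out of 10833 probe sets and 8251 genes so named. The annotation names no probe set for Jag1. RNA from 6 animals was pooled per genotype and hybridised to 1 array, which leaves 2 arrays, no replicates and no test. The strain and the design of the deletion are not stated in the labels. The source labels say epidermis, whereas the titles and the protocol say skin, and no separation of the layers is described.

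Notch receptors are surface proteins that are activated by Jagged or Delta-like ligands on a neighbouring cell. Ligand binding leads to cleavage of the receptor, and its intracellular part enters the nucleus, joins Rbpj on DNA and switches on repressor genes of the Hes and Hey families. Fringe enzymes such as Lfng add sugars to the receptor and alter which ligands it answers to. In the epidermis the pathway is known for promoting the exit of keratinocytes from the basal layer and their differentiation, and in blood vessels it acts in endothelial and mural cells.

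In knockout skin the receptor genes Notch1 and Notch3 and the target genes Hes1 and Hey1 read higher than in wild type skin, while Lfng and Jag2 read lower. Where neither array lay at the floor these higher values were under 2-fold, and the other Notch1 probe set gave only a lower bound, 1.71-fold. Lfng was at least 2.81-fold lower and Jag2 was 1.99-fold lower, just short of 2-fold. Dll1 and Rbpj differed little, and Notch4 was too dim on both arrays for a ratio. Values are MAS5 signals, the Affymetrix summary of a probe set on a linear scale. Signals below a floor of 247 signal units, the 40th percentile of all values, were raised to it before the log2 ratio of knockout over wild type was taken. A probe set above the floor on at least 1 array is called measured, and a ratio with 1 array at the floor is a lower bound on the size of the difference. Of the 12 probe sets, 9 were measured, 7 of them above the floor on both arrays.

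**Figure D1:**
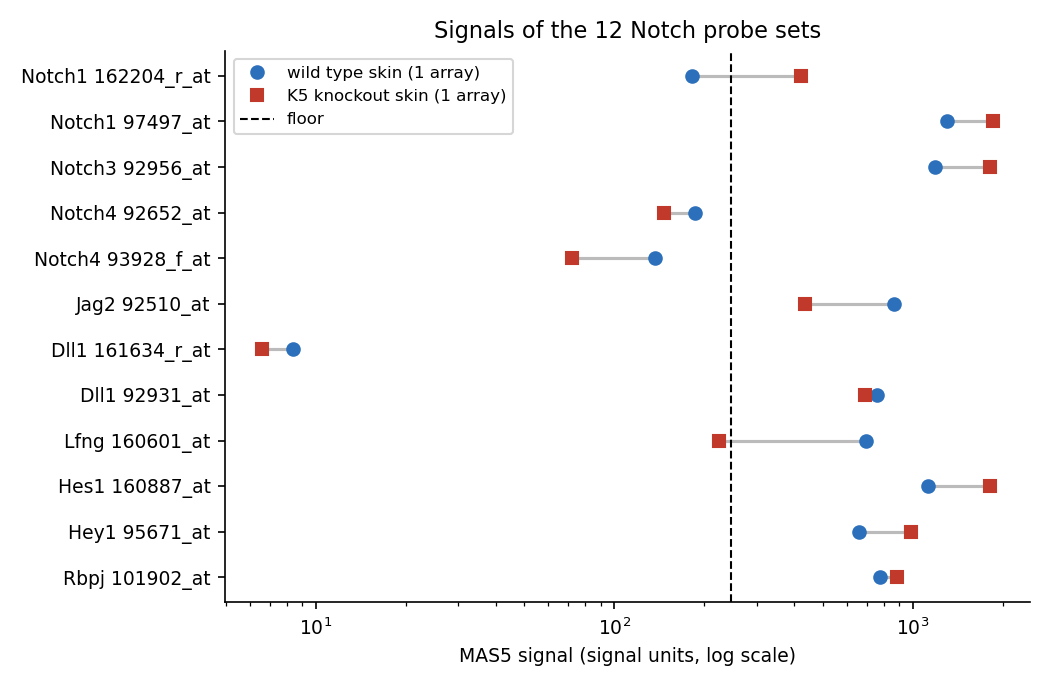
MAS5 signal (log axis, signal units) of each of the 12 probe sets on the knockout array (red squares) and the wild type array (blue circles), 1 pooled sample each, with the floor of 247 as a dashed line. Lfng shows a wide gap, from 694 in the wild type to 223 in the knockout, and 3 probe sets lie under the floor on both arrays.

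Among the receptors, Notch1, the main receptor of differentiating keratinocytes, had 2 probe sets that ran the same way. Probe set 97497_at read 1856 in knockout skin and 1302 in wild type skin, 1.43-fold higher (log2 ratio 0.51). Probe set 162204_r_at read 422 and 182. The wild type value lay under the floor, so this probe set was at least 1.71-fold higher, and its suffix marks probes chosen with relaxed selection rules. Without a floor its log2 ratio was 1.21, past 2-fold. Notch3, a receptor found in suprabasal keratinocytes and in mural cells of vessels, read 1809 in knockout skin and 1189 in wild type skin, 1.52-fold higher (log2 ratio 0.61). Notch4, a receptor of endothelial cells, was under the floor on both arrays with both of its probe sets. Probe set 92652_at read 147 in knockout skin and 186 in wild type skin, and 93928_f_at, whose suffix marks probes shared within a sequence family, read 72.4 and 137. No fold is given for Notch4.

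Both measured ligands read lower in the knockout, by very different amounts. Jag2, a Jagged ligand of the basal epidermis, read 436 in knockout skin and 867 in wild type skin. Its log2 ratio was -0.99, which is 1.99-fold lower. Jag2 passed 2-fold with quantile normalization (log2 ratio -1.07) and with a lowess correction (-1.08). With the floor at the 60th percentile its bound was -0.39. Dll1, a Delta-like ligand, read 693 in knockout skin and 755 in wild type skin on probe set 92931_at, a log2 ratio of -0.12. Its other probe set, 161634_r_at, read 6.60 and 8.40, far under the floor.

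Lfng, the lunatic fringe enzyme, read 223 in knockout skin and 694 in wild type skin, so that only the wild type value lay above the floor. The bound on its log2 ratio was -1.49. It was the 1 probe set of 9 measured that was at least 2-fold lower, against 0.736% of all 7067 measured probe sets, and 0 of 9 were at least 2-fold higher, against 1.51%. Over both directions the share of all measured probe sets was 2.25%. Lfng was dim in the knockout, and its call held under 6 of 7 alternative settings. Some of these could not have lost it. A lower floor or none only widens the ratio, and Lfng has a plain probe set (no letter in its suffix). The call also held with a pseudocount of 100 in place of the floor (log2 ratio -1.30), with quantile normalization (bound -1.52) and with the lowess correction (bound -1.62). It was lost with the floor at the 60th percentile, 660 signal units, which lies just under the wild type signal. There the bound was only -0.07. Jag2, which lay above the floor on both arrays, had a lower ratio than all but 0.807% of measured probe sets. In bulk RNA, fewer cells of a type and less RNA per cell cannot be told apart.

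The 250 bases upstream of the annotated start of Lfng and of Notch1 are printed because these genes differed in opposite directions. They come from RefSeq (build GRCm38.p6). Windows were found for 8 of the 10 genes, and Hes1 and Hey1 had none. Lfng lies on the plus strand (chr5:140607091-140607340) and Notch1 on the minus strand (chr2:26503823-26504072). Capitals mark TGGGAA, the core of the motif that Rbpj binds, or TTCCCA, the same core on the other strand.
Lfng: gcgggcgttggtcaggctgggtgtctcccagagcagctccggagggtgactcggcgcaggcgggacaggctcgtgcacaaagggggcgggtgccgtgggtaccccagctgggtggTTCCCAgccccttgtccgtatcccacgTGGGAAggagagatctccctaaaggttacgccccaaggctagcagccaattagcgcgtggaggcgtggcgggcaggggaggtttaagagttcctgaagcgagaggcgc
Notch1: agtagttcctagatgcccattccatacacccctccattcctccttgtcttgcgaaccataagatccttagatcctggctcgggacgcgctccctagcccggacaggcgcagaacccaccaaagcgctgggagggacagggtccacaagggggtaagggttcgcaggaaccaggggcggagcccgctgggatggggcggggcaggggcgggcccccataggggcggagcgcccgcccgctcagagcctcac
The Lfng window held the core at 2 places, at -135 to -130 as TTCCCA and at -108 to -103 as TGGGAA, counted from the start. The second place was part of GTGGGAA, at -109 to -103. It also overlapped CACGTG at -112 to -107, a form of CACGNG, the hexamer class that Hes and Hey proteins bind, which was searched on both strands. The hexamer class matched at 2 further places in the Lfng window, at -181 to -176 and at -55 to -50. The Notch1 window held neither TGGGAA nor CACGNG. Among the genes that read lower, the hexamer class was present in the window of Lfng and absent from that of Jag2. Among those that read higher, it was present in the window of Notch3 and absent from that of Notch1. Dll1 and Rbpj, which differed little, had 2 windows each. The hexamer class was present in both windows of Dll1 and absent from both of Rbpj. It was also present in the window of Jag1, which has no probe set. The windows of Jag2, Notch3 and Rbpj and 1 window of Dll1 did not end at the annotated start of the gene. Any link between these matches and the ratios was not tested. Of 32851 RefSeq windows of this length, 21.6% held TGGGAA on either strand, 2.77% held it at 2 or more places, 5.42% held GTGGGAA and 23.5% held CACGNG. Among the windows of the listed genes, Rbpj was the other gene with the core. These are matches of letters and no binding was measured.

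The target genes read higher in the knockout, while the mediator Rbpj differed little. Rbpj, the DNA-binding protein through which all Notch receptors act, read 884 in knockout skin and 776 in wild type skin, which gave a log2 ratio of 0.19. Hes1, a repressor that is a classic direct target of Notch, read 1813 and 1124, 1.61-fold higher (log2 ratio 0.69). Hey1, a related repressor and target, read 989 and 661, a log2 ratio of 0.58. The difference for Rbpj was small beside those of both target genes.

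Error could be gauged only from how far probe sets for 1 gene lie apart. The standard deviation of their log2 ratios was 0.30 over 838 genes, which holds no variation between animals or pools. In the order of ratios, Notch1 (97497_at), Hey1, Notch3 and Hes1 followed each other in steps of 0.03 to 0.08, so their order is not resolved. Notch1 (162204_r_at) has no fixed place above them, because its ratio is a bound of 0.77 and 1.21 without a floor. The step from Jag2 to Dll1 (0.87) was wider than that spread, except with the floor at the 60th percentile, where Jag2 had a bound of -0.39. Lfng was at least 0.50 below Jag2, but with that higher floor both ratios were bounds, -0.07 for Lfng and -0.39 for Jag2, and gave no order. The steps from Dll1 to Rbpj (0.31) and from Rbpj to Notch1 (0.32) were about as wide as that spread. The spread is that of a single ratio, whereas a step holds the error of both its ratios, so these steps are not resolved either.

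Log2 ratios of all measured probe sets had a median of 0.04, and 95% of them lay from -0.74 to 0.86. Lfng and Jag2 lay below this range, except with the floor at the 60th percentile, where their bounds lay inside the reported range. The 6 other probe sets with neither array at the floor lay within it, and Notch1 162204_r_at, known only as a bound of 0.77, cannot be placed. When measured probe sets were divided into 3 bands by level, this range ran from -0.80 to 0.96 in the dim band, which held Lfng, and from -0.71 to 0.83 in the middle band, which held Jag2. Of the 9 measured probe sets, 6 read higher in the knockout, against 54.7% of all measured probe sets with a ratio above 0. Counted by genes, each represented by its brightest probe set, 5 of 8 were higher and 3 lower. Their median log2 ratio was 0.35, against 0.04 over all 5976 measured genes.

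**Figure D2:**
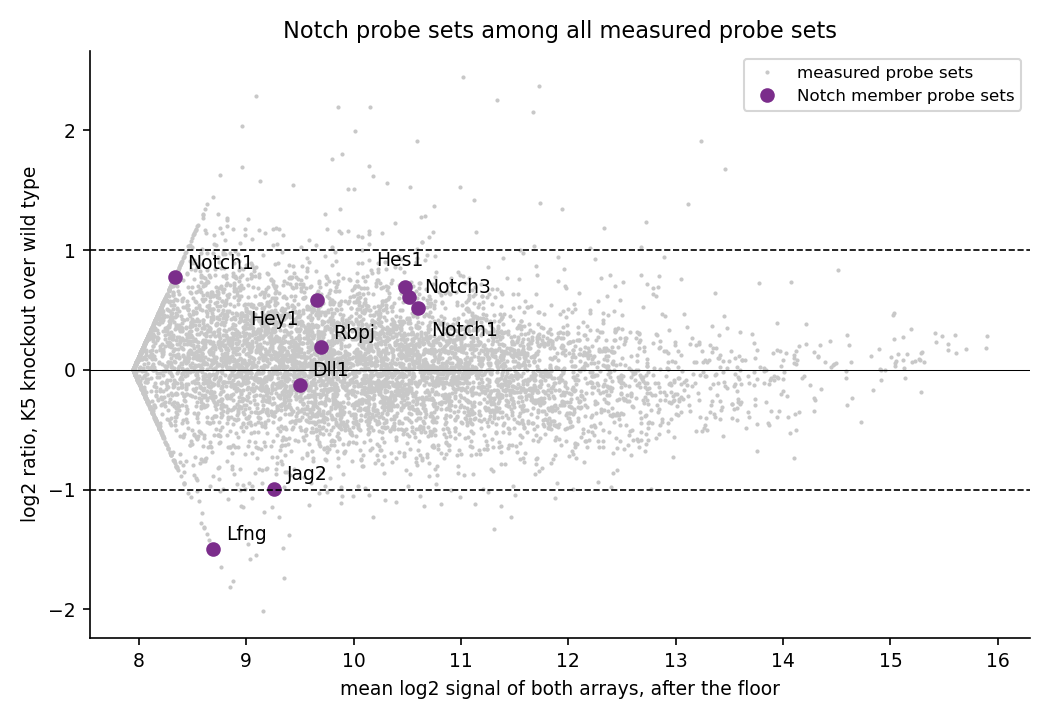
Log2 ratio of knockout over wild type (y axis) against the mean log2 signal of both arrays (x axis) for the 7067 measured probe sets (grey) and the 9 measured Notch probe sets (purple, named), with dashed lines at 2-fold. Lfng and Jag2 sit at the lower edge of the cloud, whereas Hes1, Notch3, Hey1 and Notch1 sit in its upper part, inside the 2-fold lines. The dimmer Notch1 point and Lfng are bounds.

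The rest of the pathway was described with lists of other Notch genes. Of 71 listed symbols, in which Tle5 also stands under its older name Aes, 43 were on the array and 36 were measured. Of these, 22 were higher and 14 lower, with a median log2 ratio of 0.16. None was at least 2-fold higher and 1 was at least 2-fold lower, against 1.54% and 0.703% of all measured genes, or 2.24% over both directions. By sign, 53.9% of all measured genes were higher.

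The other receptor and ligand genes on the array were Notch2 and Dlk1. Notch2 read 1439 in knockout skin and 1693 in wild type skin on its brighter probe set, a log2 ratio of -0.23. Dlk1, a ligand-like protein that is known to restrain Notch, was at 0.46 (38895 against 28379). Unlike Lfng, the fringe genes Rfng and Mfng were close to equal in both genotypes. Rfng was at 0.15 and Mfng at 0.08, and Mfng turned to -0.04 with quantile normalization and to -0.05 with the lowess correction.

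The 5 measured genes of receptor cleavage all read lower, by little, with a median of -0.07 (-0.13 with quantile normalization, where 4 of 5 were lower, and -0.14 with the lowess correction). Psenen, a subunit of the gamma-secretase that releases the intracellular part of the receptor, was lowest at -0.50 (1148 against 1619). The catalytic subunit gene Psen2 was at -0.20. Furin, which cleaves the receptor on its way to the surface, was at -0.07 and turned to 0.02 with quantile normalization. Adam10, the sheddase that cuts ligand-bound Notch, was highest at -0.02 and turned to 0.18 as the mean over its probe sets.

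Regulators of ubiquitination and endocytosis were higher in 7 of 8 measured genes, with a median of 0.40. Dtx1, a ubiquitin ligase of the Deltex family that is also a Notch target, was highest at 0.81 (463 against 264). The lowest was the endocytic adaptor Epn1 at -0.06, which turned positive with quantile normalization (0.03) and with the lowess correction (0.04). Numb, which antagonises Notch, was at 0.27 and Itch, a ubiquitin ligase that acts on Notch, at 0.53.

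Of 12 measured nuclear cofactors, 8 were higher and 4 lower, with a median of 0.23. The acetyltransferase genes Kat2a and Kat2b, which are close relatives, ran in opposite directions. Kat2a read 227 in knockout skin and 615 in wild type skin and was at least 2.49-fold lower, the 1 pathway gene past 2-fold. Both of its signals lie under the higher floor of 660. Kat2b was the highest of the list at 0.74 (1420 against 852).

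Among other Hes and Hey genes and direct targets, 5 of 8 measured genes were higher, with a median of 0.34. This list also counts Dtx1 (0.81), which is counted among the regulators above as well. Bhlhe40, a repressor of the same protein class as Hes1, was highest at 0.90 (1712 against 917), and Hes6, which counteracts Hes1, was lowest at -0.08 (531 against 563). The classic target Hes5 and the family members Hes2 and Hes3 were under the floor on both arrays. Myc was at 0.33 and the cyclin gene Ccnd1 at -0.05.

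**Figure D3:**
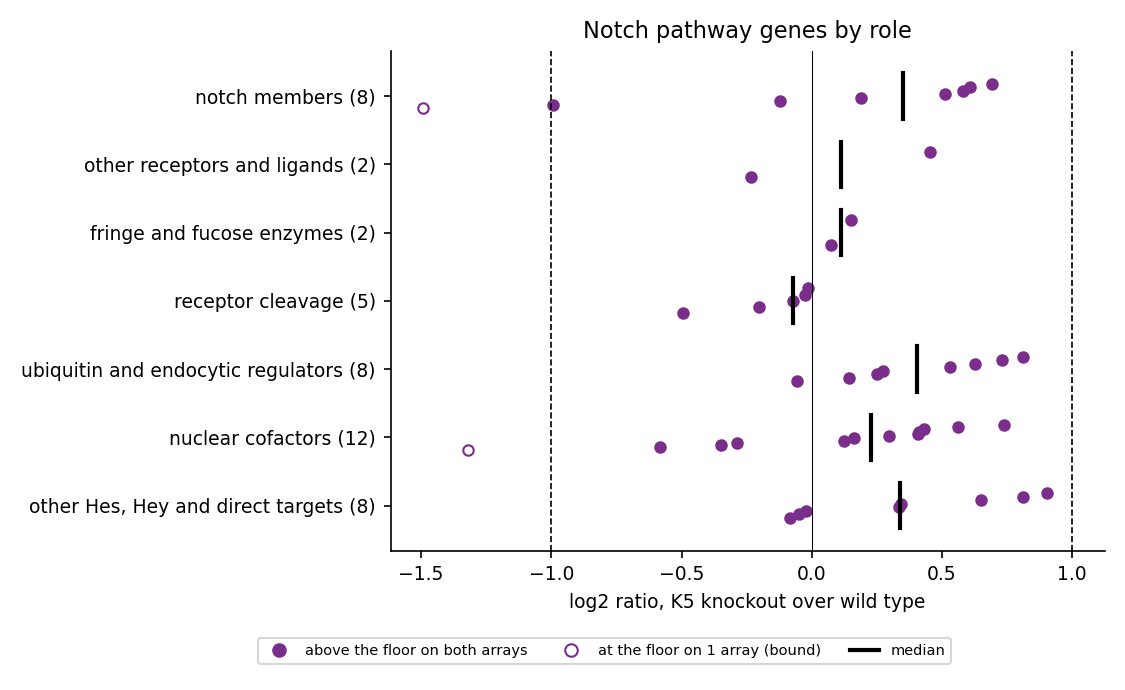
Log2 ratio of knockout over wild type for the measured genes of each Notch list (number in brackets), with 1 point per gene, open points for bounds and a black bar at the median. Lfng at -1.49 and Kat2a at -1.32 are the points beyond the 2-fold lines, and the cleavage genes lie between -0.50 and -0.02.

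Some markers of the cell types in which these genes act also differed between the pools. Of the basal keratinocyte markers, 7 of 8 were on the array, 4 were measured and all 4 were lower, with a median of -0.46. Their summed signal was 7350 in knockout skin and 9945 in wild type skin. Itgb4 was lowest at -0.56 and Col17a1 highest at -0.29. The basal keratin genes Krt5 (81.2 in the knockout, 46.6 in the wild type), Krt14 and Krt15 were under the floor on both arrays, so the targeted gene does not check the labels. Of 8 measured suprabasal markers 6 were higher, with a median of 0.29, from Krt2 at -0.51 to Ivl at 1.27, and their summed signal was 228554 against 199465. With quantile normalization 5 of 8 were higher and the median was 0.13. The part of both marker lists in the differences of Jag2, Notch1, Notch3 and Hes1 was not tested.

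Of 11 measured endothelial markers 9 were higher, with a median of 0.17. They ran from Tie1 at -0.22 (0.23 as the mean over its probe sets) to Vwf at 1.05. Vwf was dim, at 600 in knockout skin and 289 in wild type skin. With the pseudocount, quantile normalization or the lowess correction, 0 of these endothelial markers were at least 2-fold higher. Their summed signal was 14762 in knockout skin and 13008 in wild type skin, and Flt1 was under the floor on both arrays (186 and 188). Of 8 measured mural and smooth muscle markers 5 were higher, with a median of 0.02, from Acta2 at -0.67 to Pdgfrb at 0.70, and their summed signal was 8841 against 9438. This median had no stable sign: it was -0.03 with quantile normalization and with the lowess correction, with 4 of 8 higher, and 0.13 as the mean over probe sets. Their part in the Notch3 difference was not tested. The remaining marker lists were described in the same way. Of 13 measured hair follicle markers 11 were higher, from Krt17 at -0.999 to Krt86 at 1.22. Their summed signal was nearly equal, 31983 in knockout skin and 31876 in wild type skin. Their median was 0.27, but 0.06 at the higher floor and 0.18 from plain probe sets. Of 9 measured fibroblast markers 7 were higher, from Thy1 at -0.54 to Pdgfra at 1.02. Their median was 0.27, but 0.17 with quantile normalization and 0.06 as the mean over probe sets. All 9 measured skeletal muscle markers were higher, with a median of 0.23, from Acta1 at 0.06 (-0.04 with quantile normalization) to Myh8 at 0.94. All 7 measured macrophage markers were higher, from Tyrobp at 0.18 to Adgre1 at 0.97 (535 against 273). Their median was 0.49, or 0.31 at the higher floor. Melanocyte markers (4 measured, from Dct at -0.17 to Tyrp1 at 0.06) had a median of -0.03, which turned to 0.03 once the floor was lowered to the 25th percentile, and Tyrp1 turned to -0.06 with quantile normalization and the lowess correction. Schwann cell markers (3 measured, from Mbp at -0.19 to Sox10 at -0.03) had a median of -0.17, which shrank to -0.03 as the mean over probe sets, where Mbp was at 0.35.

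**Figure D4:**
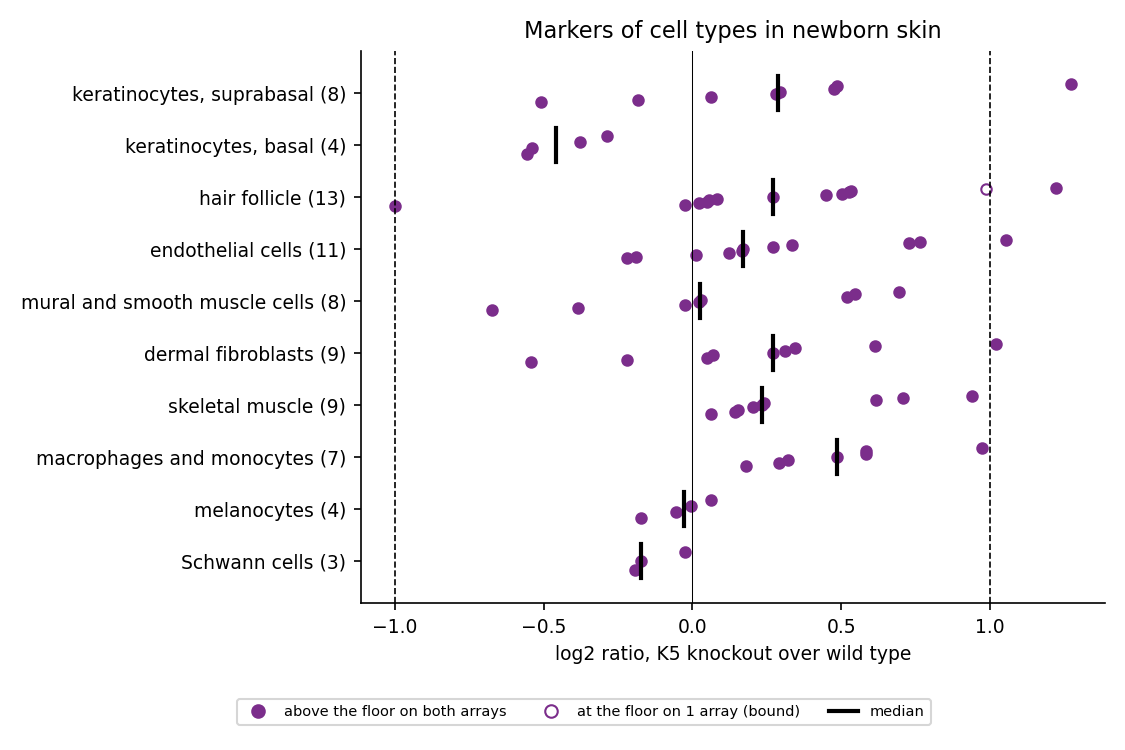
Log2 ratio of knockout over wild type for the measured markers of each cell type (number in brackets), with 1 point per gene, an open point for a bound and a black bar at the median. The basal keratinocyte markers lie between -0.56 and -0.29, below 0, and the suprabasal markers reach 1.27.

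**Figure D5:**
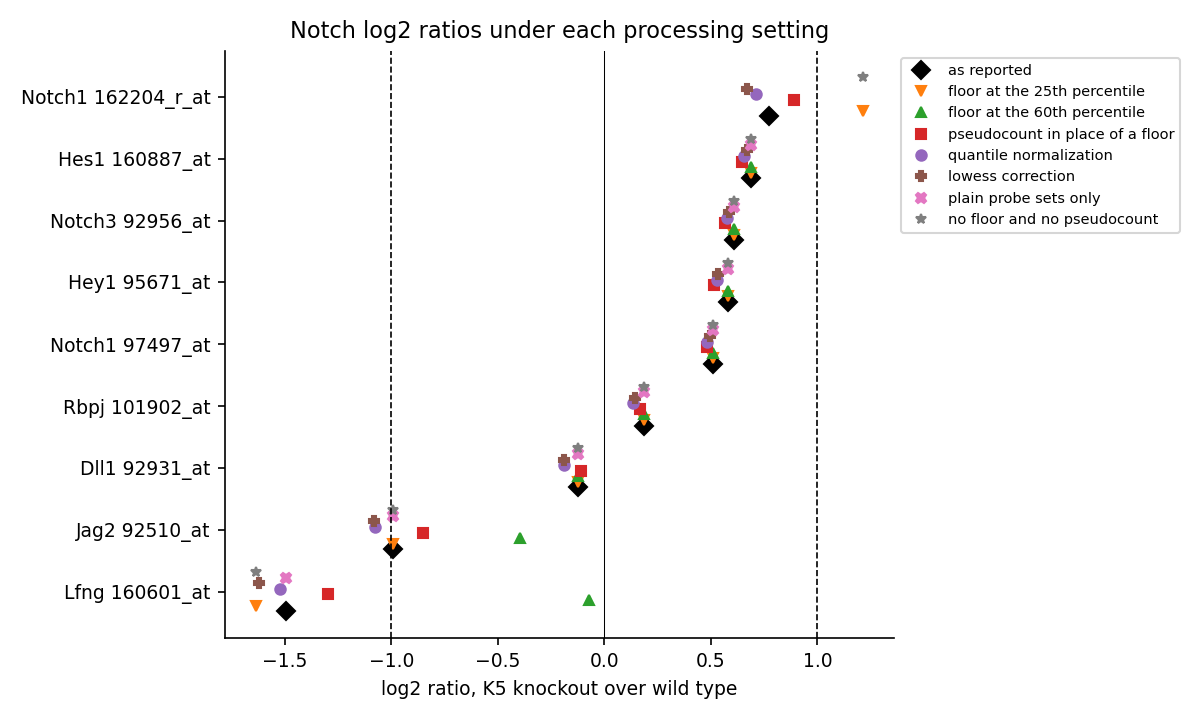
Log2 ratio of knockout over wild type for the 9 measured Notch probe sets as reported (black diamonds) and under each alternative setting of floor and scaling (other symbols), with dashed lines at 2-fold. No probe set crosses 0, a change that only quantile normalization and the lowess correction could have brought about. Lfng moves from -1.49 to -0.07 and Jag2 from -0.99 to -0.39 once the floor is raised to the 60th percentile.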

How the data were processed

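Gene expression was measured on 2 arrays, 1 per genotype, each with RNA pooled from 6 animals. The deposited table gives 1 intensity per probe set, made by the authors with MAS5 per the submitters' processing notes, with no version or scaling target stated there. Of 12488 probe sets, 66 were controls, 10833 had 1 gene symbol, 396 several and 1193 none. Symbols were checked through Entrez identifiers against RefSeq, with 10817 matched and 0 updated.

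Both arrays were scaled to a common 2% trimmed mean (factors 1.0002 and 0.9999), a floor was set at the 40th percentile (247 signal units) and log2 was taken (Python 3.11.15, numpy 2.4.6, pandas 2.3.3, statsmodels 0.14.6 for lowess). Genes were represented by their brightest probe set. With 1 array per group no test was run, and the number of arrays limits the precision. Over all measured probe sets, 107 were at least 2-fold higher and 52 lower, and 93 and 71 with quantile normalization. On simulated arrays for knockout against wild type (6917 measured probe sets), 100 bright probe sets were altered 3-fold and 100 were altered 4-fold. The calculation called 95% and 100% of these and 0.0893% of the unaltered ones, which says nothing of dim probe sets. The simulated noise had the standard deviation of 0.30 seen between probe sets of 1 gene. It held no variation between animals or pools, so 0.0893% is not a rate of false calls for these data.

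Every member probe set is named. From each list, genes at least 2-fold different and the highest and lowest ratio are named by rule; the others were picked for their role after their values were seen. The members and lists were chosen with earlier results of these data known. Alternatives changed the floor, the scaling, the choice of probe set and the probe set type.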

Additional observations from a re-analysis of the deposited data

How the results depend on the processing

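The number of Notch probe sets at least 2-fold different was 1 as reported (Lfng). It was 2 with the floor at the 25th percentile, where the Notch1 probe set 162204_r_at passed 2-fold at 1.21, and 2 without floor or pseudocount, a setting added after seeing the data. It was also 2 with quantile normalization and with the lowess correction, where Jag2 passed. It was 0 once the floor was raised to the 60th percentile. The 8 alternatives gave a median of 0.19 to 0.38 for the Notch genes and of 0.15 to 0.21 for the other pathway genes. Hes1 (0.64 to 0.69), Hey1 (0.52 to 0.58), Notch3 (0.57 to 0.61), Notch1 97497_at (0.48 to 0.51), Rbpj (0.13 to 0.19) and Dll1 (-0.19 to -0.11) kept their direction under the 7 alternatives run on probe sets. With the floor at the 25th percentile the Notch4 probe sets gave -0.34 and a bound of -0.65. Low signal limits Lfng, Jag2, Notch4 and the Notch1 probe set 162204_r_at. No paired analysis was possible because each group is 1 array.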
